A study of Mus musculus with 40 samples.

Results

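Complement is a set of plasma and tissue proteins that tag cells and debris for uptake and draw in myeloid cells. C1q is built from A, B and C chains encoded by C1qa, C1qb and C1qc. In the classical pathway C1q binds a target and activates the proteases C1r and C1s. C1s then cuts C4 and C2 to form an enzyme that cuts C3. In the alternative pathway factor B, encoded by Cfb, joins C3 to make a second such enzyme, and C1 inhibitor, encoded by Serping1, blocks C1r and C1s. Macrophages are a known main source of C1q in tissues, whereas the liver makes most of the plasma C3, C4, C2 and factor B, and fibroblasts and myeloid cells also make them locally.

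The 9 genes described here are C1qa, C1qb, C1qc, C1ra, C2, C4b, C3, Cfb and Serping1, out of 39012 genes in the deposited tables. They were picked by name with earlier results of these libraries known, in particular the comparison of bifunctional with anti-PD-L1 tumors. That comparison is therefore given below as a description: how many of the 9 passed the threshold is stated, and no support is drawn from it. All 9 were found by Ensembl ID, and all 9 passed the filter on low counts in every fit.

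RNA was measured in 40 EMT-6 tumors, 1 library per tumor, in 4 groups of 10. EMT-6 is a mouse mammary carcinoma line, here grown in the mammary pad of Balb/C females aged 8 to 12 weeks, with no allele other than the strain's own named in the labels. One group received 492 µg of the bifunctional protein, an anti-PD-L1 antibody that carries a TGF-β trap (called M7824 in the series title). The trap control group received 492 µg of a trap fused to a mutated anti-PD-L1, the anti-PD-L1 group 400 µg of the antibody alone, and the isotype control group 400 µg of an inactive anti-PD-L1 isotype control. All doses were intravenous on days 0, 1 and 2, starting 20 days after the cells were placed at a mean tumor volume near 400 mm3, and all tumors were taken on day 6. Every group, the controls included, thus carried an antibody, and no untreated tumor was analysed here.

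The libraries fall into sets that are kept apart here. Set 1 (C0449 to C0464) holds the 10 isotype control libraries and 6 trap control libraries, and 7SL and mitochondrial ribosomal RNA took 29.7% to 62.3% of their counts. Set 2 (C0465 to C0488) holds the 10 bifunctional, 4 trap control and 10 anti-PD-L1 libraries, with 11.7% to 18.0% of such RNA. The labels name no batch. Only the trap control group has libraries in both sets, so a comparison of bifunctional or anti-PD-L1 tumors with isotype control rests on those 6 and 4 libraries. The summed expected count of a library was between 13495835 and 27658263. Bifunctional libraries C0479 and C0484 stood apart by skeletal muscle genes, with mean log2(CPM + 1) over 9 muscle genes of 7.22 and 8.06, where the next highest bifunctional library had 3.6. The highest muscle score of all, 9.23, was in trap control library C0463 of set 1. C0479 was also high in keratinocyte genes, at 8.80, and C0484 in adipocyte genes, at 5.84, so results that rest on them are given with and without them.

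C1qa, C1qb and C1qc lie side by side on the minus strand of chromosome 4 (GRCm38), at chr4:136895917-136898803, chr4:136880129-136886187 and chr4:136889804-136893065. C2, Cfb and C4b lie in the class III region of the major histocompatibility complex on chromosome 17, at chr17:34862604-34898265, chr17:34856374-34862518 and chr17:34728380-34743882, all on the minus strand. C3 is on the same chromosome at chr17:57203970-57228136, C1ra on the plus strand of chromosome 6 at chr6:124512405-124523443, and Serping1 at chr2:84765387-84775444. The span of C2 overlaps the opposite-strand gene Zbtb12, which averaged 109.8 expected counts per library, and the strand used in counting was not given in the sources used here. C4b has the near copy C4a and C1ra the near copy C1rb, so their levels depend on how the authors' counting divided shared reads.

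RefSeq promoter windows (GRCm38.p6) were given for 4 of the 9 genes, and the 250 bases before the start were searched. They are shown here for C1qb and C1qc, which moved together, and for C3, which moved apart from them. For C1qc only the 99 bases outside the GENCODE gene are shown. Capitals mark motif matches on either strand.
C1qb: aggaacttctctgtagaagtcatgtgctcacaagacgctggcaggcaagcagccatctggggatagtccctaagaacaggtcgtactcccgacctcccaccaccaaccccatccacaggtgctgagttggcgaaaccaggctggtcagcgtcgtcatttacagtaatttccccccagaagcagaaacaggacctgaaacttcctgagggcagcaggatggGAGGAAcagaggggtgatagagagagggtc
C1qc: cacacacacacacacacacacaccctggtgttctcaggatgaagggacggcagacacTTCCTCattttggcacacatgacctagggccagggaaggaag
C3: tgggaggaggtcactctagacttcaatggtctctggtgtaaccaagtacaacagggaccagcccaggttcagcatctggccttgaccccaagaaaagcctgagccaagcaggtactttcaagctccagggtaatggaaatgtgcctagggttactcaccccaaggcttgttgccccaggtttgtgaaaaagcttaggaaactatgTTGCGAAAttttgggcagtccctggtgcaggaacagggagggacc
The C1qb window is chr4:136886201-136886450, the C1qc stretch shown chr4:136893066-136893164 and the C3 window chr17:57228137-57228386, all on the minus strand and written 5′ to 3′. C1qb holds the letters GAGGAA at position -30, and C1qc holds their reverse complement TTCCTC at position -193. These letters contain the core that PU.1 and other ETS factors of myeloid cells are known to bind, and 23.3% of 32851 promoter windows hold them on 1 strand or the other. C3 holds TTGCGAAA at position -45, a match to the C/EBP-like pattern TTGCNNAA that 9.56% of windows hold. The interferon-stimulated response element and the gamma-activated site TTCNNNGAA were in 2.98% and 7.02% of windows and in none of those of C1qb, C1qc and C3. The C1ra window held no match to the 4 patterns, and no matches overlapped.

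In TPM, which scales for transcript length as well as depth, C1q was the most abundant part of the set. In bifunctional tumors C1qa stood at 96.8 ± 33.2 TPM, C1qc at 56.2 ± 19.5 TPM and C1qb at 51.6 ± 19.0 TPM (SD, n = 10), in that order in 10 of 10 libraries. C3 (19.8 ± 18.2 TPM), C1ra (16.6 ± 2.48 TPM), C4b (16.2 ± 12.8 TPM), Serping1 (15.5 ± 11.02 TPM) and Cfb (15.2 ± 9.31 TPM) followed, and neighbours among these 5 changed places between libraries, so their order is within their spread. C2 was lowest at 2.37 ± 1.07 TPM, below Cfb in 10 of 10. In anti-PD-L1 tumors the C1q chains kept that order in 10 of 10 libraries, at 54.4 ± 13.1, 29.4 ± 6.91 and 25.7 ± 6.82 TPM, and C1ra came next at 11.1 ± 2.64 TPM. In isotype control tumors C1qb (8.37 ± 2.69 TPM) stood above C1qc (7.14 ± 2.52 TPM) in 10 of 10 libraries.

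The place of C1qb among the chains followed the library set. The C1qc to C1qb ratio of TPM was 1.14 ± 0.03 in the 4 trap control libraries of set 2 and 0.80 ± 0.09 in the 6 of set 1 (SD), and the ranges of 1.11 to 1.16 and 0.70 to 0.96 did not overlap. Bifunctional tumors had 1.10 ± 0.05, anti-PD-L1 tumors 1.15 ± 0.06 and isotype control tumors 0.85 ± 0.09 (SD, n = 10 each). The ratio of C4b to its near copy C4a also followed the set, at 13.4 ± 1.67 in trap control tumors of set 2 and 3.60 ± 1.17 in those of set 1. The ratio of C1qa to C1qc overlapped between the sets, at 1.83 ± 0.05 in set 2 and 1.75 ± 0.09 in set 1 of the trap control group. The sets are defined by library number and differ in RNA content, so these values are a description with no test.

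Levels from here on are CPM, counts scaled to library size after TMM normalisation, which allow libraries but not genes to be compared.

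**Figure D1:**
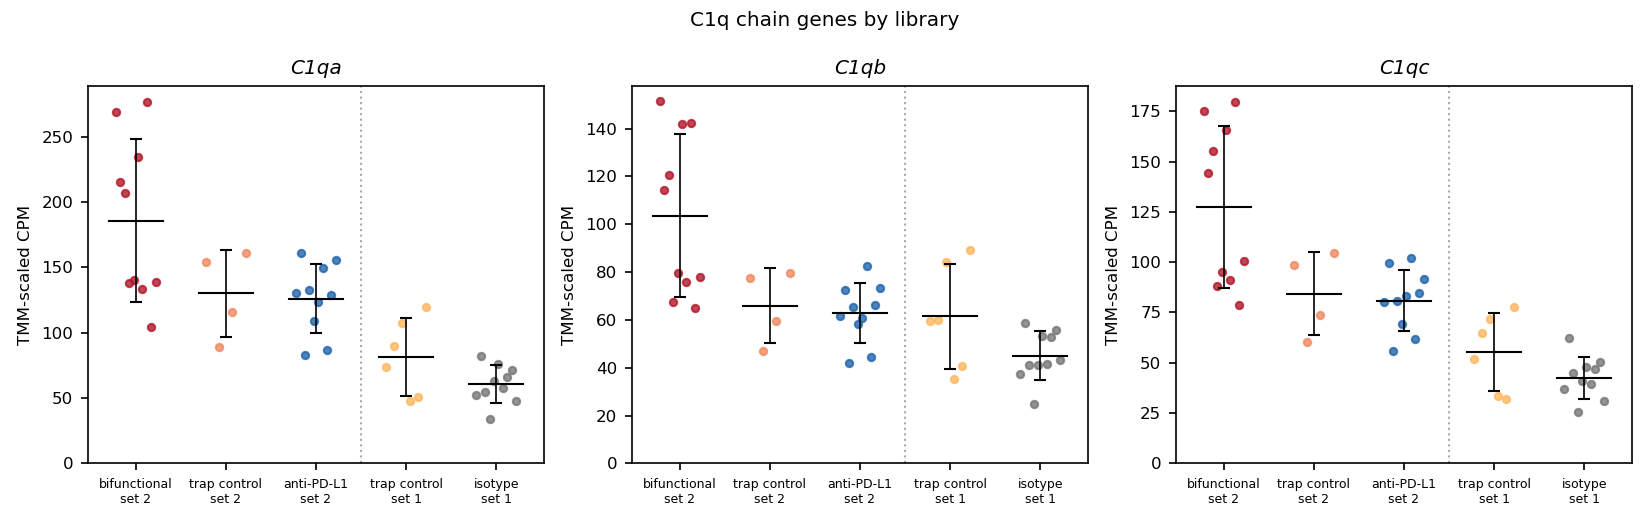
C1qa, C1qb and C1qc in each library as TMM-scaled CPM (vertical axis, linear from 0), by treatment group and library set. Points are libraries, the long bar is the mean and the error bar the SD; 5 of 10 bifunctional libraries lie above the highest anti-PD-L1 library for each chain, and the dotted line separates set 2 from set 1.

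The C1q chain genes were higher in bifunctional than in anti-PD-L1 tumors, with overlapping groups. C1qa ran from a lowest value of 105 through a median of 174 to a highest of 277 CPM in bifunctional tumors, against 83.0, 129.9 and 161 CPM in anti-PD-L1 tumors. Trap control libraries of set 2 had 154, 89.4, 116 and 161 CPM of C1qa, all inside the span of the anti-PD-L1 group. The top bifunctional libraries for C1qa were C0486 and C0479, and 5 of 10 exceeded every anti-PD-L1 library.
C1qb, the B chain, ran through 65.0, 96.9 and 152 CPM (lowest, median and highest) in bifunctional tumors, against 41.8, 63.5 and 82.7 CPM in anti-PD-L1 tumors, and was 77.7, 46.9, 59.3 and 79.7 CPM in trap control tumors of set 2. Each of the 10 bifunctional libraries exceeded the median of the anti-PD-L1 group. C1qc, the C chain, ran through 78.6, 123 and 179.8 CPM in bifunctional tumors, against 55.8, 81.9 and 102 CPM in anti-PD-L1 tumors, and was 98.5, 60.5, 73.9 and 105 CPM in trap control tumors of set 2. The same libraries ended the range for all 3 chains: C0487 was lowest among bifunctional and C0471 among anti-PD-L1 tumors.

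On the log2 scale the bifunctional minus anti-PD-L1 difference from edgeR's quasi-likelihood fit of set 2 was 0.54 (SE 0.17) for C1qa, 0.70 (SE 0.17) for C1qb and 0.63 (SE 0.16) for C1qc. Macrophage markers moved with it: 6 of 15 were called higher and none lower (Csf1r, Cd68, Fcgr1, Aif1, Fcer1g and Cd14), where 12.4% of all genes tested were called higher. The summed level of the list ran from 369 to 1139 TPM in bifunctional tumors and from 349 to 573 TPM in anti-PD-L1 tumors. With the macrophage score of each library as a covariate the differences were 0.06 for C1qa, 0.21 for C1qb and 0.18 for C1qc, none past the threshold. Of the 15 macrophage markers 1 was called higher without C0479 and C0484 (Fcer1g), where fewer of all genes tested were called too, as given below. In bulk tumors more macrophages and more C1q RNA per macrophage cannot be told apart.

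**Figure D2:**
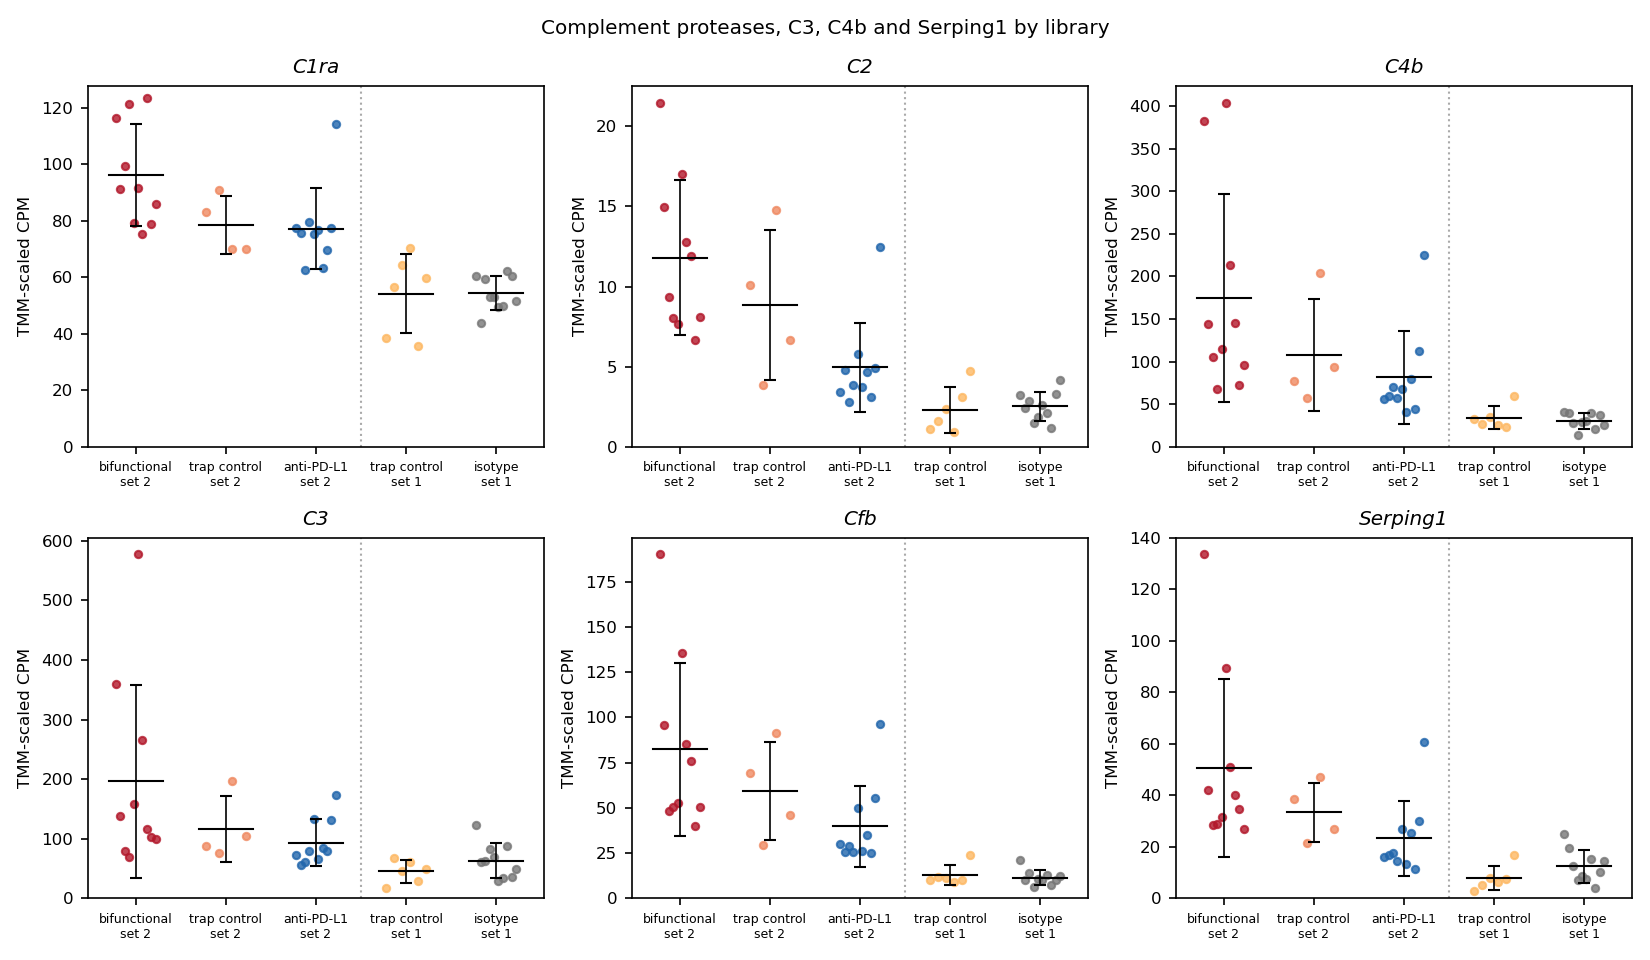
C1ra, C2, C4b, C3, Cfb and Serping1 in each library as TMM-scaled CPM (vertical axes, linear from 0), drawn as for the C1q chains with mean and SD. Except for C1ra, the same libraries stand highest in their groups: C0479 and C0484 among bifunctional, C0467 among trap control libraries of set 2 and C0478 among anti-PD-L1 tumors. For C1ra the highest are C0486, C0466 and C0478.

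C1ra, which encodes the protease C1r, varied least of the 9 genes among bifunctional tumors, relative to its mean. It ran through 75.4, 91.3 and 123 CPM (lowest, median and highest) in bifunctional tumors, against 62.7, 76.2 and 114 CPM in anti-PD-L1 tumors, where the highest value came from C0478 and the next was 79.6 CPM. Trap control tumors of set 2 had 83.0, 90.7, 69.9 and 69.8 CPM. The bifunctional minus anti-PD-L1 difference was 0.30 (SE 0.11) on the log2 scale. Its partner C1s1, the protease that cuts C4 and C2, averaged 81.1 ± 20.4 CPM in bifunctional and 44.4 ± 18.4 CPM in anti-PD-L1 tumors (SD, n = 10 each). The ratio of C1ra to C1s1 in TPM was accordingly lower in bifunctional tumors, at 1.22 ± 0.23 against 1.89 ± 0.40 in anti-PD-L1 tumors.

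C2, whose product is cut by C1s, ran through 6.68, 10.6 and 21.5 CPM in bifunctional tumors, against 2.81, 4.26 and 12.5 CPM in anti-PD-L1 tumors. Trap control tumors of set 2 had 10.1, 3.88, 14.8 and 6.69 CPM. All 10 bifunctional libraries exceeded the anti-PD-L1 median, and the second highest anti-PD-L1 library had 5.79 CPM, below the lowest bifunctional one. Its difference of 1.23 (SE 0.27) on the log2 scale was the largest of the 9.
C4b, the other substrate of C1s, ran through 67.5, 129.5 and 404 CPM in bifunctional tumors, against 40.8, 63.8 and 226 CPM in anti-PD-L1 tumors, and was 77.5, 57.3, 204 and 93.1 CPM in trap control tumors of set 2. Its log2 difference was 1.07 (SE 0.36).

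C3, the protein on which all complement pathways meet, had the widest relative spread among bifunctional tumors. It ran through 69.4, 127 and 578 CPM in bifunctional tumors, against 55.6, 79.0 and 174 CPM in anti-PD-L1 tumors, and was 87.7, 75.5, 197 and 105 CPM in trap control tumors of set 2. C0484 held the highest value and C0479, at 359 CPM, the next, and 8 of 10 bifunctional values exceeded the median of the anti-PD-L1 group. Its log2 difference was 1.04 (SE 0.34) with all libraries and 0.46 (SE 0.26) without those 2.
Cfb, the protease of the alternative pathway, ran through 40.04, 64.3 and 190.2 CPM in bifunctional tumors, against 24.9, 29.4 and 96.1 CPM in anti-PD-L1 tumors, and was 69.4, 29.7, 91.4 and 46.1 CPM in trap control tumors of set 2. Its log2 difference was 1.03 (SE 0.30).
Serping1, the inhibitor of C1r and C1s, ran through 26.8, 37.4 and 134 CPM in bifunctional tumors, against 11.5, 17.2 and 60.7 CPM in anti-PD-L1 tumors, and was 38.6, 21.4, 47.0 and 26.9 CPM in trap control tumors of set 2. All 10 bifunctional libraries exceeded the anti-PD-L1 median for C4b, Cfb and Serping1, but only C0479 and C0484 exceeded the highest anti-PD-L1 library, C0478. The log2 difference for Serping1 was 1.10 (SE 0.32).

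All 9 genes were past an adjusted p of 0.05 in bifunctional against anti-PD-L1 tumors, where 25.6% of the 15704 genes tested were called in either direction and 12.4% as higher. Their median log2 difference was 1.03, against 0.01 over all genes tested. Since the genes were picked with this comparison known, the count carries no weight of its own. Without C0479 and C0484, 2 of 9 were past the threshold, C1qb at a difference of 0.58 and C2 at 1.01, and 760 of all genes tested in place of 4014. Leaving out C0479 alone left 3 of 9, and leaving out the anti-PD-L1 library C0471, which was lowest for all 3 C1q chains, C1ra and C2, left 5 of 9. With the muscle, skin and fat scores as covariates C2 alone was past it, at 0.88, and with the macrophage score none was, and 22 of all genes. The sign was positive for all 9 under every setting tried.
Host tissue markers differed in the same direction, with 8 of 9 muscle, 2 of 2 tested keratinocyte and 5 of 9 adipocyte genes called higher, and their part in the result was not tested beyond these fits. Lymphocyte and interferon genes also moved with it: 8 of 10 T and NK cell markers, 7 of 17 interferon-gamma response genes and 3 of 9 dendritic cell markers were called higher and none lower, and their part was not tested. Other lists are given beside the 12.4% of all genes called higher. Of fibroblast markers 2 of 12, of endothelial markers 1 of 8 and of neutrophil markers 0 of 6 were called higher, and none lower. The median log2 difference was 0.56 for the fibroblast and 0.38 for the macrophage markers. Without C0479 and C0484, 1 of 12 fibroblast and 1 of 15 macrophage markers were called higher, with a median of 0.26 for both lists. Of 5 carcinoma epithelial markers 1 was called higher and 1 lower. Hepatocyte markers were near 0: the 5 matched to the tables summed to between 0.02 and 0.82 TPM in bifunctional tumors and between 0.04 and 0.19 TPM in anti-PD-L1 tumors. Scaling as log2(TPM + 1) moved the median of all genes to 0.15 and turned the calls to 3043 higher and 43 lower, in place of 1951 and 2063, while the differences of the 9 genes lay between 0.55 (C1ra) and 1.2 (Serping1).

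**Figure D3:**
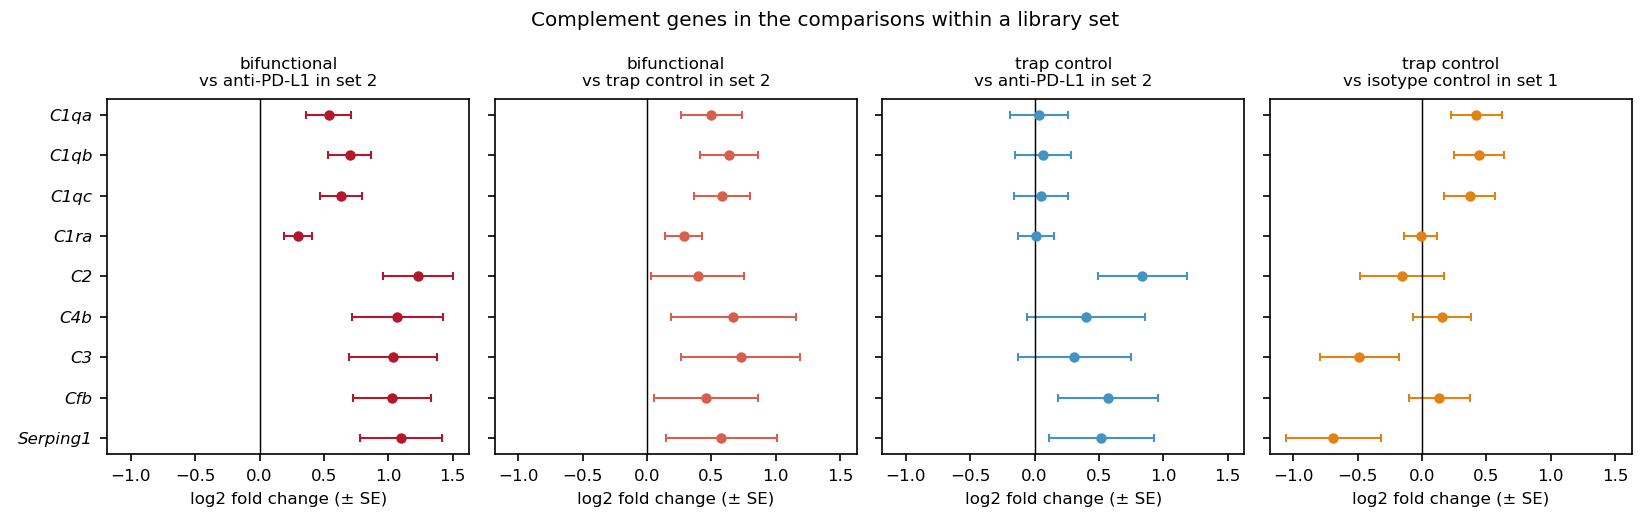
Log2 fold change of the 9 genes (horizontal axis, with SE as bars) in the 4 comparisons within a library set, first group named over the second. All 9 points lie right of 0 in bifunctional against anti-PD-L1, whereas the C1q chains lie near 0.04 to 0.06 in trap control against anti-PD-L1 and C3 and Serping1 lie left of 0 in trap control against isotype control.

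PD-L1 binding was added to the trap in the comparison of bifunctional with trap control tumors of set 2, and none of the 9 genes passed the test. C1qb had a log2 difference of 0.64 (SE 0.23, adjusted p = 0.219, edgeR), C1qc one of 0.58 (SE 0.22, adjusted p = 0.244) and C1qa one of 0.50 (SE 0.23, adjusted p = 0.312). The other 6 ran from 0.29 for C1ra to 0.73 for C3, with adjusted p from 0.339 to 0.572. The C1q chains were the 3 with an unadjusted p under 0.05, DESeq2 called none of the 9, and 0.00637% of all genes were called, which is 1 gene (214 by DESeq2, and 2427 at an unadjusted p under 0.05). All 9 differences were positive, with a median of 0.58 against 0.03 over all genes. Values overlapped for every gene, and the trap control group of set 2 holds 4 libraries.

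Trap control against anti-PD-L1 tumors within set 2 also gave no call among the 9 genes, with 0.0127% of all genes called. The C1q chains and C1ra differed by 0.01 to 0.06 on the log2 scale (SE 0.14 to 0.23). The remaining genes were higher in the trap control group by a log2 difference of 0.84 for C2 (SE 0.35, adjusted p = 0.96), 0.57 for Cfb (SE 0.39), 0.52 for Serping1 (SE 0.41), 0.40 for C4b (SE 0.46) and 0.31 for C3 (SE 0.44), none past the test. C2 was the 1 gene of the 9 with an unadjusted p under 0.05, DESeq2 called none of them and 3 of all genes, and 772 genes had an unadjusted p under 0.05. One trap control library, C0467, was highest for C2, C4b, C3, Cfb and Serping1 and ranked 3 of 4 for the C1q chains. That library had the highest adipocyte score of the 4, at 4.42 against 1.28 to 2.56, and the part of adipose tissue in those values was not tested. The 3 comparisons within set 2 share their libraries in pairs and are not independent.

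In set 1 the trap was compared with the isotype control without PD-L1 binding. Trap control tumors ran through 47.8, 81.8 and 120.0 CPM of C1qa (lowest, median and highest of 6), against 33.8, 60.3 and 82.4 CPM in isotype control tumors (of 10). C1qb ran through 35.2, 59.7 and 89.3 CPM in trap control tumors, against 24.8, 42.4 and 58.6 CPM in isotype control tumors. C1qc ran through 32.2, 58.5 and 77.9 CPM in trap control tumors, against 25.5, 42.9 and 62.4 CPM in isotype control tumors. For each chain 4 of 6 trap control libraries lay above the isotype median, but the log2 differences of 0.42 (SE 0.20, adjusted p = 0.186), 0.44 (SE 0.19, adjusted p = 0.16) and 0.37 (SE 0.20, adjusted p = 0.243) for C1qa, C1qb and C1qc did not pass edgeR's test.
C3 and Serping1 leaned the other way. C3 ran through 17.6, 47.7 and 68.5 CPM in trap control tumors, against 29.2, 61.6 and 122 CPM in isotype control tumors, a log2 difference of -0.49 (SE 0.31, adjusted p = 0.325). Serping1 ran through 2.95, 6.87 and 16.7 CPM in trap control tumors, against 3.87, 11.4 and 25.0 CPM in isotype control tumors, a log2 difference of -0.69 (SE 0.37, adjusted p = 0.242).
C1ra, C2, C4b and Cfb differed by -0.16 to 0.15. Cfb had a highest value of 23.7 CPM in trap control library C0464 and 21.2 CPM in isotype control library C0449, against medians of 10.8 and 10.5 CPM. C0449 was the highest isotype control library for C3, C4b, Cfb and Serping1 and had the highest muscle score of that group, 3.42. None of the 9 genes was called, with 2 at an unadjusted p under 0.05 and none by DESeq2, in a comparison that called 7.34% of 14183 genes.

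Comparisons of set 2 groups with the isotype control need the set as a term, which rests on the trap control libraries. Unadjusted for set, the bifunctional means exceeded the isotype means by 1.77-fold for C1ra to 7.17-fold for Cfb, but in the trap control group alone the set 2 libraries exceeded the set 1 libraries by 1.07-fold for C1qb, 1.59-fold for C1qa, 2.57-fold for C3, 4.30-fold for Serping1 and 4.64-fold for Cfb. With the set as a term, C1qb was higher in bifunctional than in isotype control tumors by 1.11 on the log2 scale (SE 0.31, adjusted p = 0.0468), and it was the only one of the 9 past the test, where 2.55% of 15183 genes were called. C1qc at 0.98 (SE 0.31, adjusted p = 0.0678) and C1qa at 0.95 (SE 0.32, adjusted p = 0.0852) did not pass. The adjusted p for C1qb ran from 0.031 to 0.161 when single trap control libraries were left out, was 0.1 without C0479 and C0484, and was 0.0171 by DESeq2, which called all 3 chains. The other 6 genes did not pass, with log2 differences of 0.87 for C4b (SE 0.56), 0.63 for Cfb (SE 0.50), 0.29 for C1ra (SE 0.20), 0.29 for C3 (SE 0.58), 0.27 for C2 (SE 0.51) and -0.07 for Serping1 (SE 0.58).
Anti-PD-L1 tumors showed no called member against isotype control, with 0.0132% of genes called, 1 member at an unadjusted p under 0.05 and none by DESeq2. Their C1q differences were 0.30 to 0.37 (SE 0.30 to 0.32), and Serping1 and C2 had the lowest values, -1.22 (SE 0.58, adjusted p = 0.481) and -1.01 (SE 0.51, adjusted p = 0.503). C3 had -0.81 (SE 0.57), Cfb -0.45 (SE 0.50), C4b -0.26 (SE 0.56) and C1ra -0.04 (SE 0.20).

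The interaction asks whether the trap moved a gene by a different amount with and without PD-L1 binding. It contains the bifunctional minus anti-PD-L1 difference known beforehand and is given as a description. The difference with PD-L1 binding lies within set 2 and that without it within set 1, so PD-L1 binding and the set cannot be told apart. On the log2 scale it was 1.84 for Serping1 (SE 0.53), 1.59 for C3 (SE 0.51) and 1.44 for C2 (SE 0.46). In the separate fits of each set, bifunctional minus anti-PD-L1 was 1.10, 1.04 and 1.23 for these genes. Trap control minus isotype control had the opposite sign, at -0.69, -0.49 and -0.16, none past the test. The interactions of these 3 of 9 genes were past an adjusted p of 0.05, where 8.69% of genes were called. The interaction was 0.98 for C4b (SE 0.49), 0.95 for Cfb (SE 0.44), 0.35 for C1ra (SE 0.17) and 0.16 to 0.31 for the C1q chains (SE 0.27 to 0.28), none past it. Without C0479 and C0484 none of the 9 was past the threshold, and the values were 1.31 for Serping1, 0.95 for C3 and 1.18 for C2.

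**Figure D4:**
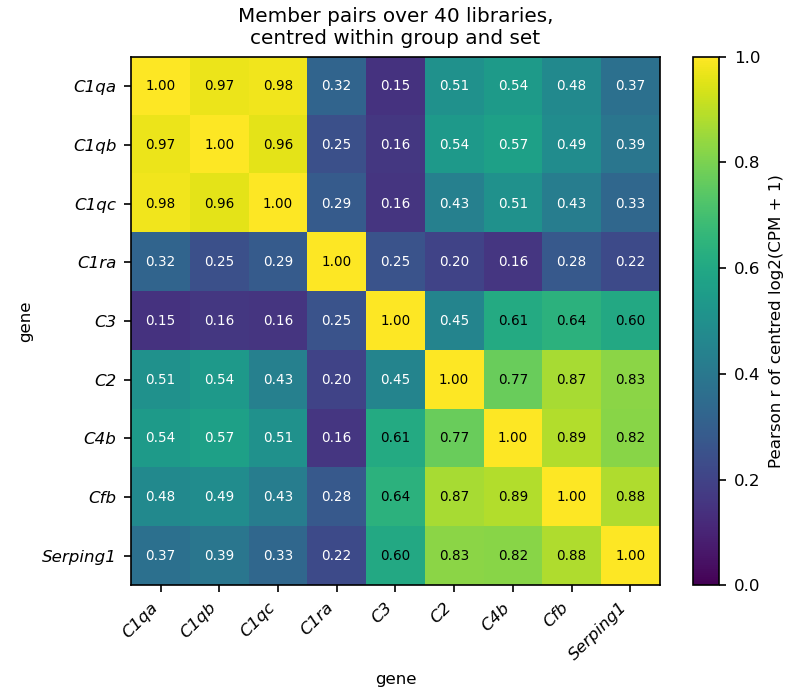
Pearson correlation between each pair of the 9 genes over 40 libraries, on log2(CPM + 1) with each group and set centred on its own mean. The C1q chains form one block at 0.96 to 0.98, and C2, C4b, Cfb and Serping1 another at 0.77 to 0.89.

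Across libraries the genes fell into blocks. The members were picked with earlier results of these libraries known, so no support is drawn from the blocks. With each group and set centred on its mean, the 3 pairs of C1q chains correlated at r of 0.96 to 0.98 over 40 libraries, and the 6 pairs among C2, C4b, Cfb and Serping1 at 0.77 to 0.89. Pairs across those blocks had 0.33 to 0.57. C3 correlated with the second block at 0.45 to 0.64 and with C1q at 0.15 to 0.16, and C1ra with no member above 0.32. Without C0479 and C0484 the C1q pairs stood at 0.96 to 0.98, the second block at 0.73 to 0.85 and C3 with C1q at -0.06 to -0.03. The libraries share RNA content and scaling, so these r are descriptions.
Some libraries ranked differently for the blocks. With 1 as the highest of 10 bifunctional libraries, C0485 ranked 8 or 9 for the C1q chains, 3 or 4 for C2, C3, C4b, Cfb and Serping1, and 10 for C1ra. C0486 ranked 1 or 2 for the C1q chains and C1ra and 4 to 6 for the others. In the anti-PD-L1 group C0471 ranked 10 for the C1q chains and 4 to 6 for C4b, Cfb and Serping1, but it also ranked 10 for C2 and 9 for C3.

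The genes most like each member by this centred r were ranked among 13018 genes, and among the members only the C1q chains had top 3 genes in common. For C1qa and C1qc they were Ctss (0.91 and 0.92), a lysosomal protease, Trem2 (0.89 and 0.90), a lipid receptor of macrophages, and Inpp5d (0.89 for both), a phosphatase of blood cells. For C1qb they were Inpp5d (0.91), Ctss (0.90) and Csf1r (0.89), the receptor macrophages need to survive. C1ra was closest to C1s1 (0.72), Lipa (0.70) and Colec12 (0.67), which ranked 6, 5 and 4 without C0479 and C0484. C2 was closest to Kcp (0.86), Tbc1d2b and Tfpi (0.85 for both), C4b to Lrp3 (0.91), Man1a and Cd300ld3 (0.90 for both), Cfb to Slfn5 (0.88), Marcks (0.88) and Timp3 (0.87), and Serping1 to Slit3, Atp8b1 and Adam19 (0.91 for each). C3 was closest to Fgf10 (0.78), Gng7 (0.76) and Ablim1 (0.74), which had 0.65 to 0.66 without C0479 and C0484.

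**Figure D5:**
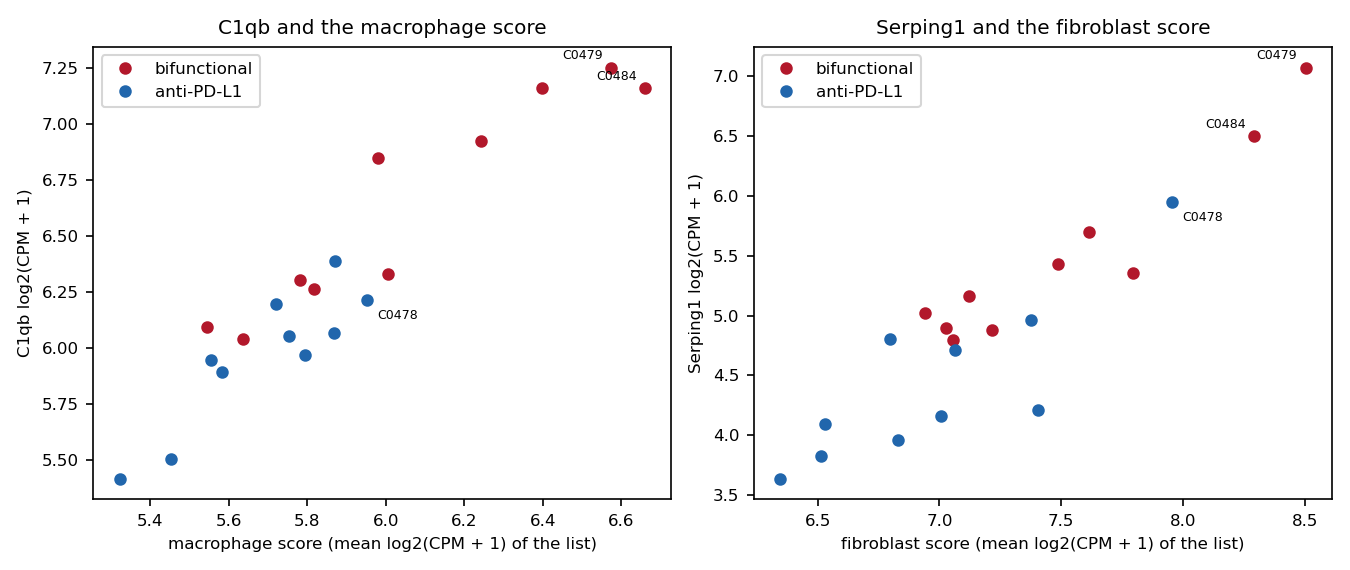
C1qb against the macrophage score (left) and Serping1 against the fibroblast score (right), each as log2(CPM + 1), in the 10 bifunctional and the 10 anti-PD-L1 libraries. C0479 and C0484 have the highest scores of the bifunctional group in both panels, and C0478 those of the anti-PD-L1 group.

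Each gene was set against the macrophage score and the fibroblast score (means of log2(CPM + 1) over 15 and 12 marker genes) within the bifunctional and the anti-PD-L1 group, 36 relations in all, of which 22 had a Benjamini-Hochberg adjusted p under 0.05 by a permutation test of r with 100000 resamples. By Spearman's rho 10 of the 36 did. C1qb followed the macrophage score in both groups, at r = 0.94 (rho = 0.93, permutation p = 3e-05, adjusted p = 0.00108) in bifunctional and r = 0.89 (rho = 0.89, permutation p = 0.00052, adjusted p = 0.00238) in anti-PD-L1 tumors. Leaving out the 2 libraries with the most extreme scores gave r = 0.93 in bifunctional and 0.68 in anti-PD-L1 tumors. C1qa and C1qc had r of 0.88 and 0.90 with that score in bifunctional and 0.88 and 0.84 in anti-PD-L1 tumors. Without the 2 libraries with the most extreme scores they had 0.86 and 0.89 in bifunctional and 0.64 and 0.54 in anti-PD-L1 tumors. By Spearman's rho neither passed in anti-PD-L1 tumors (permutation adjusted p = 0.0516 for both). The macrophage score was also related to C4b (r = 0.81), C2 (0.75), Cfb (0.74) and Serping1 (0.71) in bifunctional tumors, with permutation adjusted p from 0.014 to 0.0312, and leaving out the 2 libraries with the most extreme scores gave r of 0.50, 0.45, 0.36 and 0.16 for these genes.
With the fibroblast score, the C1q chains had r of 0.73 to 0.79 in bifunctional and 0.23 to 0.30 in anti-PD-L1 tumors. C4b followed the fibroblast score in both groups, at r = 0.93 (rho = 0.84, permutation p = 0.00033, adjusted p = 0.00198) in bifunctional and r = 0.92 (rho = 0.92, permutation p = 0.00025, adjusted p = 0.00194) in anti-PD-L1 tumors, and at 0.76 and 0.80 without the 2 libraries with the most extreme scores. Serping1 had r = 0.95 in bifunctional and 0.84 in anti-PD-L1 tumors, and 0.80 and 0.53 without those 2. C2 and Cfb had r of 0.93 and 0.94 with it in bifunctional tumors and 0.68 and 0.75 in anti-PD-L1 tumors, where leaving out those 2 gave 0.03 and 0.36. C3 had r = 0.82 in bifunctional tumors and 0.45 without those 2. C1ra had no relation past the threshold in either group on this scale, with r from 0.35 to 0.57. On log2(TPM + 1) this differed. There all 9 genes, C1ra included, passed with the macrophage score in both groups and with the fibroblast score in bifunctional tumors. Of the 36 relations 9 were past the threshold without C0479 and C0484, and none of these was with the fibroblast score in bifunctional tumors.

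Of 44 other complement genes listed, 29 were tested in set 2. Against anti-PD-L1, 13 were higher and 0 lower in bifunctional tumors by edgeR's test, in a comparison that called 12.4% of all genes higher, with a median log2 difference of 0.52. Without C0479 and C0484, 3 were higher (C1s1 at 0.78, C1s2 at 0.76 and Clu at 0.75), and the median was 0.36. With all libraries, the 13 included 4 of 5 proteases, with C1s1 at 0.85 (SE 0.18, adjusted p = 0.00584), C1s2, a near copy of C1s1, at 0.86 (SE 0.21, adjusted p = 0.00875) and C1rb at 0.50 (SE 0.16, adjusted p = 0.0237). Receptors gave 4 of 8, with Itgam, a chain of complement receptor 3, at 0.54 (SE 0.14, adjusted p = 0.0112), C3ar1, the receptor for the C3a peptide, at 0.41 (SE 0.11, adjusted p = 0.0145) and C5ar1, the receptor for the C5a peptide, at 0.60 (SE 0.18, adjusted p = 0.02).
C3ar1 averaged 77.9 ± 17.4 CPM in bifunctional and 57.9 ± 8.86 CPM in anti-PD-L1 tumors (SD, n = 10 each), and Itgam 154 ± 39.1 and 104 ± 21.9 CPM in the same groups. Among regulators 3 of 9 were higher, with Clu, which encodes the chaperone clusterin, at 0.84 (SE 0.22, adjusted p = 0.0121). Cfp, which encodes the alternative pathway stabiliser properdin, rose by 0.48 (SE 0.15, adjusted p = 0.0234). No lectin recognition gene passed (0 of 2) and 1 of 3 terminal components did.
None of the 29 was called in bifunctional against trap control tumors or in trap control against anti-PD-L1 tumors of set 2. In set 1, 24 of the listed genes were tested, with 1 called higher and 1 lower, where 7.34% of all genes were called. Hc, which encodes C5, was lower in trap control tumors, at 0.40 ± 0.09 CPM (SD, n = 6) against 1.11 ± 0.53 CPM in isotype control tumors (SD, n = 10). Its log2 difference was -1.43 (SE 0.33, adjusted p = 0.0224, edgeR). Clu was higher there, at 59.6 ± 19.1 CPM in trap control against 38.0 ± 12.1 CPM in isotype control tumors, a log2 difference of 0.64 (SE 0.19, adjusted p = 0.0457). With the set as a term, 1 of 29 was called in bifunctional against isotype control tumors, where 2.55% of all genes were called. This was Itgam, higher by 0.89 (SE 0.25, adjusted p = 0.0458, edgeR). No listed gene was called in anti-PD-L1 against isotype control. The interaction was called for 1 of 29, C3ar1 at 0.57 (SE 0.18, adjusted p = 0.0424, edgeR), where 8.69% of all genes were called. No result about complement genes as a set is drawn from these calls.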

How the data were processed

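RNA of 40 snap-frozen tumors was sequenced after ribosomal depletion with random priming, per the labels' protocols. The deposited expected counts and TPM per Ensembl gene were made by the authors, with RSEM 1.2.31 and Bowtie2 2.3.1 on mm10, per the submitters' processing notes. Names came from GENCODE M21 and matched 96.4% of the IDs. Expected counts were rounded (14.0% of values were not whole), filtered with filterByExpr, TMM-scaled and tested two-sided with edgeR 4.0.16 in R 4.3.3 (quasi-likelihood F-test, Benjamini-Hochberg over all genes tested, threshold 0.05), with separate fits for set 2 and set 1 and a fit of 40 libraries with the set as a term. DESeq2 1.42.0 and limma 3.58.1 on log2(TPM + 1) and log2(TPM + 0.1) were alternatives, as were other filters and scalings, covariates, and leaving out libraries. Scripts were tested on simulated data.

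The members and gene lists were chosen with earlier results of these data known. All 9 members are reported in every comparison, some as a range. Of the other complement genes, those past the threshold were named if either group averaged 1 CPM or more, at most 8 by smallest p. The 3 genes most like each member by centred r were named, with pseudogenes, small RNAs and predicted genes left out. No library looked like a repeat of another: over 156 pairs within groups the lowest chi-square divided by its degrees of freedom was 8.91. Library totals between 13495835 and 27658263 set the precision, and the labels give 1 tumor per library.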

Additional observations from a re-analysis of the deposited data

Results flagged for a closer look

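Of 45 groups of libraries checked for a single far value with Dixon's test, 4 stood out, and chance flags about 1 in 20 groups. In anti-PD-L1 tumors library C0478 had 114 CPM of C1ra, where the others had 62.7 to 79.6 CPM, and 12.5 CPM of C2, where the others had 2.81 to 5.79 CPM. The same library had the highest fibroblast score of its group, 7.96. In trap control tumors of set 1 library C0464 had 23.7 CPM of Cfb, where the others had 9.15 to 11.9 CPM. In isotype control tumors library C0452 had 24.8 CPM of C1qb, where the others had 37.5 to 58.6 CPM.

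Bifunctional minus anti-PD-L1 exceeded trap control minus isotype control by 1.44 for C2, 1.59 for C3 and 1.84 for Serping1 on the log2 scale. This interaction uses a contrast known when the genes were picked. For these genes the first difference was positive and the second negative. The first difference lies within set 2 and the second within set 1, so PD-L1 binding and the set cannot be told apart.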

How the results depend on the processing

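In bifunctional against anti-PD-L1 tumors (4014 genes and 9 members called), the counts were 719 genes and 1 member with covariates for muscle, skin and fat, 22 and 0 with the macrophage score, 760 and 2 without C0479 and C0484, and 1970 genes with 40 libraries and no set term. Against trap control (1 gene), 0 genes were called with no filter, on TPM, with the macrophage score, with only 2 groups, with the set term, and without C0479 and C0484, 4 with the muscle, skin and fat scores, 214 by DESeq2, and 5070 genes and 9 members with no set term. Trap control against anti-PD-L1 (2 genes) gave 0 with no filter, on TPM, with the muscle, skin and fat scores and with only 2 groups, 1 with the set term and 6697 with no set term. Trap control against isotype control (1041 genes) gave 400 with no filter, 1692 by DESeq2, 2 on TPM, 398 with the muscle, skin and fat scores, 1568 with the set term, and 4213 genes and 6 members with no set term. Bifunctional against isotype control (387 genes, 1 member) gave 43 and 0 with no filter, 850 and 3 by DESeq2, 0 and 0 on TPM, 190 and 0 with the muscle, skin and fat scores, 2 and 0 with the macrophage score, 47 and 0 without C0479 and C0484, and 9813 and 9 with no set term. Anti-PD-L1 against isotype control (2 genes) gave 0 with no filter and on TPM, 14 by DESeq2, 1 with the muscle, skin and fat scores, and 9664 genes and 7 members with no set term. The interaction (1320 genes, 3 members) gave 713 and 1 with no filter, 59 and 1 on log2(TPM + 1), 33 and 0 on log2(TPM + 0.1), 777 and 0 with the muscle, skin and fat scores, 748 and 0 with the macrophage score, 545 and 0 without C0479 and C0484, and 3920 and 0 with no set term. Of the 13 other complement genes called in bifunctional against anti-PD-L1 tumors, 3 were called without C0479 and C0484, an alternative chosen after seeing the data. Where 22 score relations passed with all libraries, 9 passed without C0479 and C0484. With the list median as the score 16 passed, and on log2(TPM + 1) 33 did.

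Leaving out 1 library at a time gave 2141 to 5242 genes and 3 to 9 members for bifunctional against anti-PD-L1, 0 to 176 genes against trap control, 0 to 2 genes for trap control against anti-PD-L1, and 421 to 1381 for trap control against isotype control. In the fits with the set as a term only the 10 trap control libraries were left out in turn, which gave 1 to 628 genes and 0 to 2 members for bifunctional against isotype control, 0 to 2 genes for anti-PD-L1 against isotype control, and 530 to 1758 genes and 0 to 3 members for the interaction. No bifunctional, anti-PD-L1 or isotype control library was left out of these fits singly. Trap control libraries of set 2 enter only the set term, which cancels in the interaction, so its range says little about its stability.

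No member changed direction in bifunctional against anti-PD-L1. With no set term, trap control against anti-PD-L1 turned to -0.29 for C1qa, -0.24 for C1qc, -0.24 for C1ra, -0.32 for C3, -0.33 for C4b, -0.31 for Cfb and -0.32 for Serping1, trap control against isotype control to 0.20 for C1ra, 0.96 for C2, 0.18 for C3 and 0.51 for Serping1, bifunctional against isotype control to 1.99 for Serping1, anti-PD-L1 against isotype control to 0.44 for C1ra, 0.91 for C2, 0.49 for C3, 1.35 for C4b, 1.72 for Cfb and 0.84 for Serping1, and the interaction to -0.12 for C1qa and -0.33 for Cfb. With the macrophage score, bifunctional against trap control turned to -0.034 for C1qa, -0.21 for C2, -0.16 for C3, -0.34 for C4b, -0.29 for Cfb and -0.24 for Serping1, bifunctional against isotype control to -0.38 for C2, -0.27 for C3, -0.14 for C4b and -0.15 for Cfb, and the interaction to -0.20 for C1qa, -0.051 for C1qb and -0.040 for C1qc. With the muscle, skin and fat scores, trap control against anti-PD-L1 turned to -0.11 for C1qa, -0.11 for C1qb, -0.10 for C1qc and -0.088 for C3, trap control against isotype control to 0.021 for C1ra, bifunctional against isotype control to -0.10 for C3 and anti-PD-L1 against isotype control to 0.16 for C4b. On TPM, Serping1 in bifunctional against isotype control was 0.27 (TPM + 1) and 0.030 (TPM + 0.1). Without C0479 and C0484, bifunctional against isotype control was -0.0020 for C2 and -0.34 for C3. Leaving out 1 library at a time, trap control against anti-PD-L1 ran from -0.073 to 0.20 for C1qa, -0.030 to 0.22 for C1qb, -0.057 to 0.21 for C1qc, -0.042 to 0.089 for C1ra, -0.067 to 0.48 for C3 and -0.10 to 0.71 for C4b, trap control against isotype control from -0.11 to 0.083 for C1ra, -0.49 to 0.014 for C2, -0.088 to 0.24 for C4b and -0.14 to 0.28 for Cfb, and, leaving out trap control libraries only, bifunctional against isotype control from -0.061 to 0.63 for C2 and -0.43 to 0.14 for Serping1, and anti-PD-L1 against isotype control from -0.13 to 0.054 for C1ra and -0.50 to 0.25 for C4b. The cause of these changes was not tested.

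No paired analysis was possible because replicate numbers only name the libraries, 1 tumor each, and tie no tumor of one group to one of another.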
